A study of Mus musculus with 8 samples.

Results

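Endothelial cells line the blood vessels, and 10 genes that mark them were followed through thymic lymphomas of mice: Cdh5, Esam, Pecam1, Emcn, Vwf, Kdr, Flt1, Tek, Tie1 and Eng. They were chosen by symbol as a group of known vessel genes, and all 10 were among the 13681 gene symbols of the expression table. Where a symbol had more than 1 entry, the entry with the highest mean over the 8 libraries was taken. RNA from tumour tissue was sequenced in 8 libraries of C57BL/6 mice that carried p53-/-, the loss of both copies of the tumour suppressor p53, in every group. At the age of 10 weeks an adenovirus was injected into the lymphoma, and tissue was taken 48 hours later. The 2 control libraries had the genotype ΔNfl/fl;p53-/- and received Ad-mCherry, a virus with a red fluorescent protein only. The 3 libraries with the genotype ΔNp63Δ/Δ;p53-/- and the 3 with ΔNp73Δ/Δ;p53-/- received Ad-CRE-mCherry, which also brings Cre recombinase. ΔNp63 and ΔNp73 are the short forms of the p53 relatives p63 and p73, which lack the amino-terminal activation domain.

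Virus and allele thus changed together between controls and the rest, and their effects cannot be told apart. Which ΔN allele was floxed in the control animals is not given, and which cells of the tumour took up virus is not stated. No label says that the libraries of a group came from separate animals, so the p-values measure only the spread between these libraries, which may be technical. Replicate numbers follow the accession order and pair nothing. Trp63, the gene that codes for p63, did not set the ΔNp63-labelled libraries apart: its leading entry read 5.21 and 3.38 FPKM in the controls, 6.57, 1.05 and 9.91 in the ΔNp63-labelled libraries and 13.8, 11.3 and 6.38 in the ΔNp73-labelled ones. In its other entries the ΔNp63-labelled libraries overlapped the controls too. Whether an entry is of the ΔN form was not examined, so these values do not show whether the deletion took place. FPKM count fragments per unit of transcript length and of sequencing depth, so levels can be compared between genes of different length.

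The 10 genes cover the main tasks of the vessel lining. VE-cadherin, ESAM and PECAM-1 join neighbouring cells, endomucin coats the surface, and von Willebrand factor is stored for release when a vessel is damaged. The VEGF receptors Kdr and Flt1, the angiopoietin receptor Tek with its partner Tie1, and the BMP and TGF-β co-receptor Eng receive the signals under which vessels sprout, branch and become stable. Many endothelial genes are controlled by transcription factors of the ETS family, whose sites hold the core GGAA, and in a tumour the lining comes from the host and is a minor part of the tissue.

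RefSeq promoters (build GRCm38.p6, 250 bases before to 50 after the start) matched 6 of the 10 genes: Emcn, Eng, Kdr, Flt1, Tek and Tie1. Pecam1, Cdh5, Esam and Vwf had no match by symbol. Motifs were searched on both strands. For ETS factors the form AGGAAG was taken first. The second form searched for the same family was CCGGAA. One or the other occurred in 5 of the 6 promoters, all but that of Tek, while 45.2% of the 32851 promoters of this length in the table held one. The form AGGAAG stood in 4 of the 6 against 35.4% of all promoters, and CCGGAA in 1 of the 6 against 14.9%. For the GATA family the letters searched were AGATAA, found in the Tek promoter only (11.2% of all), TATAAA in the Flt1 promoter only (13.6% of all), and ACAATG, a SOX form, in none of the 6 (12.6% of all). No member promoter held both ETS forms and the matches within a promoter did not overlap; a match is a stretch of letters, not a bound site. The promoters of Emcn and Eng are shown because these genes had the highest fold changes among the matched members, and those of Kdr and Flt1 because their products are the paired VEGF receptors. Each is read 5′ to 3′ on the strand of its gene, with the ETS forms in capitals. The Emcn stretch lies at chr3:137340828-137341127 on the plus strand, that of Eng at chr2:32646345-32646644 on the plus strand, that of Kdr at chr5:75978406-75978705 on the minus strand and that of Flt1 at chr5:147725962-147726261 on the minus strand.
Emcn: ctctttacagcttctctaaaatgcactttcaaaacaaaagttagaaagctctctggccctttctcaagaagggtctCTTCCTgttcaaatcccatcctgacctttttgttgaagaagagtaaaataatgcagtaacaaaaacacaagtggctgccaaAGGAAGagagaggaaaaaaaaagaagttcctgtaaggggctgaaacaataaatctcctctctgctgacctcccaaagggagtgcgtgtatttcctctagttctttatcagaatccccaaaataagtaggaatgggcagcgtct
Eng: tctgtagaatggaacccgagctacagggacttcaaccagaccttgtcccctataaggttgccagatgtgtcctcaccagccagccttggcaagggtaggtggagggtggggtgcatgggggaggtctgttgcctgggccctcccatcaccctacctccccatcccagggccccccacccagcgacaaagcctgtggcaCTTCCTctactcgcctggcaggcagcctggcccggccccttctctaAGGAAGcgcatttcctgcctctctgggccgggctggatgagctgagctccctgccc
Kdr: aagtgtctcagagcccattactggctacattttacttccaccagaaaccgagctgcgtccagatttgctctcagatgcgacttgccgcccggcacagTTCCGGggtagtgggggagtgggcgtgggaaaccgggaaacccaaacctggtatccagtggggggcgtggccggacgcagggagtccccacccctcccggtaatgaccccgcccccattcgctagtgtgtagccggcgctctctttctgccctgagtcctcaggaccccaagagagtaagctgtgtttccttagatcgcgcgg
Flt1: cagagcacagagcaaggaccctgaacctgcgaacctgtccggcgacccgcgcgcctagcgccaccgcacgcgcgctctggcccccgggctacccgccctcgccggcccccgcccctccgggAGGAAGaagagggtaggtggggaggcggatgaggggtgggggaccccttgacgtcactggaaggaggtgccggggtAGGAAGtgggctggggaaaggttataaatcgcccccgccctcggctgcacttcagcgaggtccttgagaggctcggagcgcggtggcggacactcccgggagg
The capitals appear 2 times each in the Emcn, Eng and Flt1 stretches and 1 time in that of Kdr. Emcn had the lowest share of G and C of the 4, 41.0%, against 63.3% in Eng, 60.7% in Kdr and 70.7% in Flt1, and the median of all promoters was 52.7%.

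Both deletion-labelled groups held a library that stood apart. ΔNp63 replicate 2 had a median Pearson correlation of 0.847 with the other 7 libraries over genes on the log2 scale, where the other libraries had 0.915 to 0.956. ΔNp73 replicate 1 contained transcripts of atrial heart muscle: Nppa, the atrial natriuretic peptide, stood at 322 FPKM there and at no more than 0.725 in any other library, and Myl7, an atrial myosin light chain, at 74.7 against 3.41 or less. The 9 heart genes looked at, selected once their values were known, summed to 568 FPKM in that library and to 3.17 to 6.77 in the rest. Heart tissue has its own vessels, so the counts for the endothelial genes are also given without one or both of these libraries. Fat cell genes also varied without regard to group: Adipoq, Plin1 and Cidec, chosen in the same way, summed to 11.0 and 58.7 FPKM in the controls, 100.5, 6.35 and 59.2 in the ΔNp63-labelled and 111, 7.52 and 5.69 in the ΔNp73-labelled libraries. The number of reads behind each value is unknown because only FPKM were used, and the 5 members near 1 FPKM have the least certain values.

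The 10 markers of the lining were detected in every library, and Pecam1 stood far above the others. Averaged over the 8 libraries Pecam1 was at 17.2 FPKM, followed by Eng at 6.77, Cdh5 at 6.56, Emcn at 6.41 and Esam at 3.58. Kdr (1.81), Vwf (1.80), Tek (1.65), Tie1 (1.59) and Flt1 (1.49) formed the low end. Differences between genes with close means, such as these or Eng, Cdh5 and Emcn, were not tested. The means are of leading entries. With 2 entries summed, Pecam1 was at 28.1, Eng at 8.84 and Emcn at 7.16 FPKM. Among the 12921 genes tested, Pecam1 ranked between the 68.2 and the 79.0 percentile of its library, whereas the 5 lowest members never passed the 30.8 percentile.

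Across the groups, the summed level of the 10 genes was lowest in a control library and highest in a ΔNp73-labelled one. Summed over the 10 genes, the controls were at 29.3 and 38.7 FPKM, the ΔNp63-labelled libraries at 49.5, 37.4 and 48.0, and the ΔNp73-labelled libraries at 80.7, 62.1 and 45.5. Pecam1 makes up much of that sum, and without it the controls were at 15.7 and 18.8, the ΔNp63-labelled libraries at 35.0, 20.1 and 31.2 and the ΔNp73-labelled ones at 59.1, 43.3 and 29.99. By the sum of the remaining 9, all 6 deletion-labelled libraries lay above both controls, but ΔNp63 replicate 2 lay close to them. In bulk tissue, fewer cells of a type and less RNA per cell cannot be told apart.

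**Figure D1:**
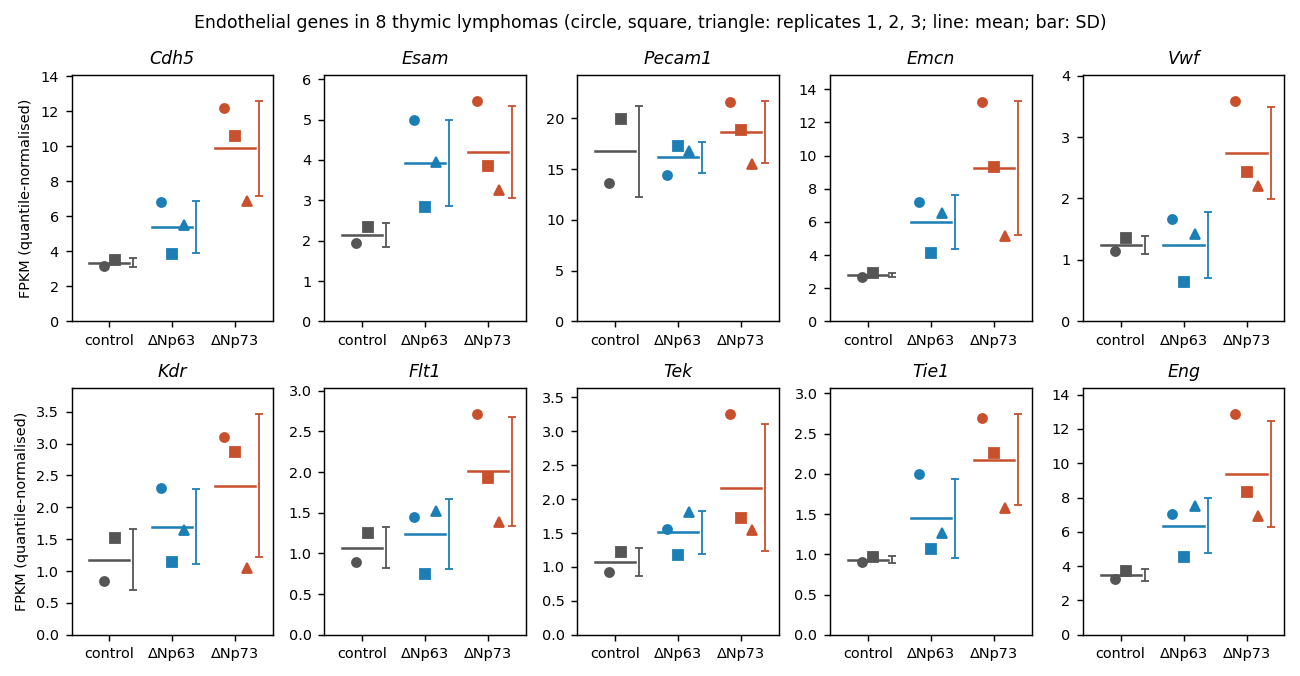
FPKM of each of the 10 endothelial genes (vertical axes, each from 0) in the control (n = 2), ΔNp63-labelled (n = 3) and ΔNp73-labelled (n = 3) libraries; points are libraries, horizontal lines are group means and vertical bars are SD. ΔNp73 replicate 1 is the highest library for all 10 genes, and Pecam1 is the gene whose groups overlap at nearly equal means.

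Among the junction genes, Cdh5 showed the widest spacing between groups. Cdh5 (VE-cadherin, the adhesion molecule of the adherens junction between endothelial cells) measured 3.17 and 3.52 FPKM in the controls, 6.81, 3.83 and 5.50 in the ΔNp63-labelled libraries and 12.2, 10.6 and 6.90 in the ΔNp73-labelled ones. By leading entries it was the only member whose libraries did not overlap in any of the 3 pairs of groups. Eng did the same once its entries were summed. The group means were 3.35 ± 0.249 (SD, n = 2), 5.38 ± 1.49 (SD, n = 3) and 9.87 ± 2.70 FPKM (SD, n = 3), so the ΔNp73-labelled mean was 2.95 times and the ΔNp63-labelled mean 1.61 times that of the controls. On the log2(FPKM + 1) scale, which understates the change of low genes, the limma difference from controls was 1.29 (SE 0.28) for ΔNp73, with an adjusted p of 0.0883, and 0.53 (SE 0.28) for ΔNp63, with an adjusted p of 0.463. Neither passed the threshold of 0.05 after Benjamini-Hochberg adjustment over all 12921 genes.

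Esam, a further adhesion molecule of endothelial tight junctions that is also found on platelets, had a flatter profile. It stood at 1.94 and 2.35 FPKM in the controls, 4.98, 2.85 and 3.96 in the ΔNp63-labelled libraries and 5.46, 3.84 and 3.26 in the ΔNp73-labelled ones. Both deletion-labelled groups lay above the controls and overlapped each other. The log2 differences from controls were 0.63 (SE 0.25, adjusted p = 0.356 in limma) for ΔNp63 and 0.70 (SE 0.25, adjusted p = 0.179) for ΔNp73, and ΔNp73 minus ΔNp63 was 0.08 with a 95% interval from -0.45 to 0.60.

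Pecam1, which is carried by endothelial cells and also by platelets and many white blood cells, did not follow the others in its leading entry. Its leading entry read 13.6 in one control and 19.9 FPKM in the other, 14.5, 17.3 and 16.8 in the ΔNp63-labelled libraries and 21.6, 18.8 and 15.5 in the ΔNp73-labelled ones. The groups overlapped in every comparison, with log2 differences from controls of -0.03 (SE 0.21, adjusted p = 0.974 in limma) and 0.16 (SE 0.21, adjusted p = 0.684). A second entry of the gene read 11.4 and 5.40, then 11.9, 10.9 and 10.6, then 11.8, 12.9 and 11.7 FPKM in the same order of groups. In control replicate 2 the first entry was high and the second low, and their sum was nearly equal in the controls, 24.97 and 25.3 FPKM. The sum was 26.3, 28.2 and 27.4 in the ΔNp63-labelled and 33.4, 31.7 and 27.2 in the ΔNp73-labelled libraries, all above the controls, with log2 differences of 0.11 (adjusted p = 0.757) and 0.28 (adjusted p = 0.275).

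Emcn and Vwf mark the surface and the storage granules of the lining. Emcn, a sialomucin typical of veins and capillaries, read 2.70 and 2.90 FPKM in the controls, 7.23, 4.13 and 6.57 in the ΔNp63-labelled and 13.3, 9.33 and 5.18 in the ΔNp73-labelled libraries. All 6 deletion-labelled libraries were above both controls, and the group means were 2.13 and 3.30 times the control mean, the highest folds of the 10 genes. The log2 differences were 0.85 (SE 0.36, adjusted p = 0.380 in limma) for ΔNp63 and 1.35 (SE 0.36, adjusted p = 0.116) for ΔNp73. These are of the leading entry, and with its 2 entries summed they were 0.87 (adjusted p = 0.343) and 1.33 (adjusted p = 0.106). Vwf, the clotting protein of endothelial granules and platelets, measured 1.14 and 1.35 FPKM in the controls, 1.67, 0.634 and 1.42 in the ΔNp63-labelled and 3.59, 2.43 and 2.20 in the ΔNp73-labelled libraries. Here the ΔNp63-labelled libraries spread around the controls, and every ΔNp73-labelled library was above both other groups. For Vwf the log2 difference of ΔNp73 from controls was 0.72 (SE 0.26, adjusted p = 0.183), that of ΔNp63 was -0.03 (SE 0.26, adjusted p = 0.974), and ΔNp73 minus ΔNp63 was 0.75 with a 95% interval from 0.21 to 1.29 and an adjusted p of 0.439.

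The receptor kinases were all low, where the log2(FPKM + 1) scale understates differences the most. Kdr, the main signalling receptor for VEGF-A, had 0.839 and 1.52 FPKM in the controls, 2.31, 1.14 and 1.65 in the ΔNp63-labelled and 3.10, 2.87 and 1.05 in the ΔNp73-labelled libraries. Its groups overlapped throughout, since ΔNp73 replicate 3 lay between the controls. Flt1, the second VEGF receptor and a trap for the ligand, had 0.895 and 1.25 FPKM, then 1.45, 0.744 and 1.53, then 2.71, 1.93 and 1.39. The ΔNp73-labelled libraries of Flt1 were all above the controls and the ΔNp63-labelled ones were not. The log2 differences from controls were 0.30 for Kdr and 0.10 for Flt1 in the ΔNp63-labelled group, and 0.57 (SE 0.35, adjusted p = 0.376 in limma) and 0.52 (SE 0.25, adjusted p = 0.279) in the ΔNp73-labelled group.

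Tek (Tie2), the receptor for the angiopoietins, read 0.928 and 1.22 FPKM in the controls, 1.56, 1.17 and 1.81 in the ΔNp63-labelled and 3.25, 1.72 and 1.54 in the ΔNp73-labelled libraries. Tie1, which pairs with Tek and has no well-known ligand of its own, read 0.903 and 0.962, then 2.001, 1.07 and 1.27, then 2.70, 2.25 and 1.57. Every deletion-labelled library exceeded both controls for Tie1, while for Tek ΔNp63 replicate 2 lay between the controls. The log2 differences of ΔNp73 from controls were 0.58 (SE 0.25, adjusted p = 0.243 in limma) for Tek and 0.70 (SE 0.23, adjusted p = 0.153) for Tie1, and those of ΔNp63 were 0.27 and 0.32. As plain ratios of group means, ΔNp73 stood at 2.03 times the controls for Tek and 2.33 times for Tie1, against 1.95 for Esam and 2.20 for Vwf.

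Eng (endoglin), the co-receptor that presents BMP9, BMP10 and TGF-β to the kinase ALK1, was close to Cdh5 in level. It stood at 3.23 and 3.74 FPKM in the controls, 7.03, 4.55 and 7.53 in the ΔNp63-labelled and 12.9, 8.34 and 6.91 in the ΔNp73-labelled libraries. All 6 deletion-labelled libraries were above the controls, and the deletion-labelled groups overlapped in this leading entry. Its log2 difference was 0.69 (SE 0.28, adjusted p = 0.367 in limma) for ΔNp63 and 1.17 (SE 0.28, adjusted p = 0.104) for ΔNp73. With its 2 entries summed, Eng read 3.89 and 5.03 FPKM in the controls. The sum was 9.34, 5.86 and 9.63 in the ΔNp63-labelled and 15.5, 10.9 and 10.5 in the ΔNp73-labelled libraries, with no overlap between groups. On that sum the log2 differences from controls were 0.75 (adjusted p = 0.304) and 1.27 (adjusted p = 0.0809). ΔNp73 minus ΔNp63 was 0.53 (adjusted p = 0.463). Endoglin is also made by activated macrophages, whose markers are given further on.

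Counted together, 0 of the 10 genes passed the adjusted threshold in any comparison of the limma fit to all 8 libraries. In that fit very few genes passed at all: 0.0929% of the 12921 for ΔNp63 against control, 0.0542% for ΔNp73 against control, 0.0542% for ΔNp73 against ΔNp63, and 0.116% for both deletion-labelled groups against control. By the unadjusted p, with the cut at 0.05, 3 of the 10 were higher in the ΔNp63-labelled group than in controls (5.96% of all genes), 6 in the ΔNp73-labelled group (11.4%), and 2 in ΔNp73 against ΔNp63 (6.11%). Groups lay apart, every library above every control, for 5 of the 10 genes in the ΔNp63-labelled group (12.6% of all genes) and for 8 in the ΔNp73-labelled group (27.7%). ΔNp73 lay wholly above ΔNp63 for 2, Cdh5 and Vwf (10.3%). These counts are by leading entries. With entries summed, Pecam1 also lay wholly above the controls in both groups, and Eng in ΔNp73 lay wholly above ΔNp63. The median log2 difference of the 10 was 0.31 for ΔNp63 and 0.70 for ΔNp73, where the medians of all genes were -0.02 and -0.07. The comparisons with control share the same 2 control libraries.

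**Figure D2:**
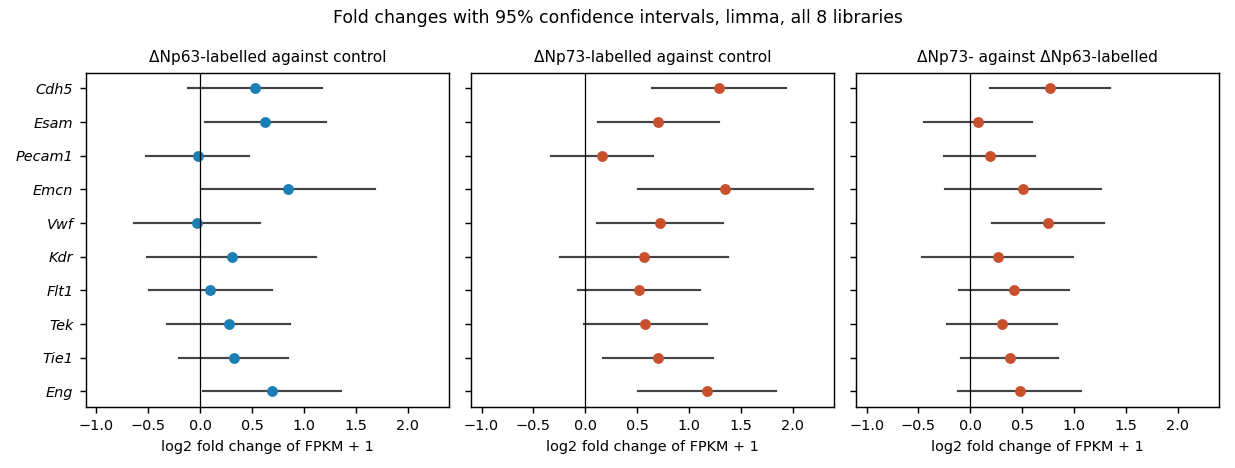
Log2 difference in FPKM + 1 for each of the 10 genes in ΔNp63 against control, ΔNp73 against control and ΔNp73 against ΔNp63, with 95% intervals from limma (n = 2 control, 3 and 3 libraries). In ΔNp73 against control the points run from 0.16 for Pecam1 to 1.35 for Emcn.

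The calls turned on ΔNp63 replicate 2. Without it, limma called Eng (0.89, adjusted p = 0.0422) and Esam (0.80, adjusted p = 0.0372) higher in the remaining 2 ΔNp63-labelled libraries than in controls, with 11.7% of all genes called higher. Cdh5 (0.71, adjusted p = 0.0727) and Emcn (1.05, adjusted p = 0.0664) did not pass. Leaving it out also narrowed the shared spread, and 6 of the 10 genes then rose in the ΔNp73-labelled group at unchanged fold changes: Cdh5 (adjusted p = 0.00569), Eng (0.00908), Emcn (0.0171), Vwf (0.0211), Esam (0.0308) and Tie1 (0.0318), with 16.8% of all genes called higher. The same 6 rose when ΔNp73 and control libraries were fitted alone, where 15.9% of all genes were called higher. Between ΔNp73 and ΔNp63, 0 of the 10 passed without that library, an unadjusted p under 0.05 was reached upward by 2 (8.16% of all genes), and 0.0626% of all genes were called higher.

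The ΔNp73 differences kept their sign but were smaller without the library that held heart transcripts. Without ΔNp73 replicate 1 the median log2 difference from controls was 0.55 instead of 0.70, with Cdh5 at 1.14, Emcn at 1.07, Eng at 0.94, Tie1 at 0.58, Vwf at 0.56 and Esam at 0.53, and 0 of the 10 passed, as against 0.00779% of all genes. By the unadjusted p, 4 were higher (8.13% of all genes). The 2 remaining libraries of the group were still wholly above the controls for 8 of the 10 genes (31.3% of all genes). With both libraries left out, a setting chosen after the data were seen, Cdh5, Emcn, Eng and Esam rose in the ΔNp63-labelled group (13.6% of all genes), and these with Vwf rose in the ΔNp73-labelled group (14.9%). Down-weighting libraries by their fit in limma, in place of leaving any out, gave 5 genes that rose for ΔNp63 (Cdh5, Emcn, Eng, Esam and Tie1; 16.3% of all genes) and 9 for ΔNp73, all but Pecam1 (23.5%). ΔNp63 replicate 2 then had a weight of only 0.0567 and counted for little. The ΔNp73 values leaned most on replicate 2, with a weight of 4.30 against 0.651 and 0.810 for replicates 1 and 3.

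Within groups, the 10 genes often had the same highest and lowest library. ΔNp73 replicate 1 was the highest of the 8 libraries and ΔNp73 replicate 3 the lowest of its group for 10 of the 10 genes. ΔNp63 replicate 2 was the lowest of its group for 9 of the 10, all but Pecam1. Control replicate 1 was below control replicate 2 for all 10 and was the lowest of the 8 libraries for 8; for Flt1 and Vwf the lowest was ΔNp63 replicate 2. On the log2 scale, 9 genes correlated with the mean of the others at r from 0.86 to 0.97 over the 8 libraries. The leading entry of Pecam1 had 0.51, or 0.16 without ΔNp73 replicate 1. No r was computed for its summed entries, which ran from 24.97 FPKM in control replicate 1 to 33.4 in ΔNp73 replicate 1. These correlations describe 8 libraries that share tissue composition and normalisation, and carry no test.

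**Figure D3:**
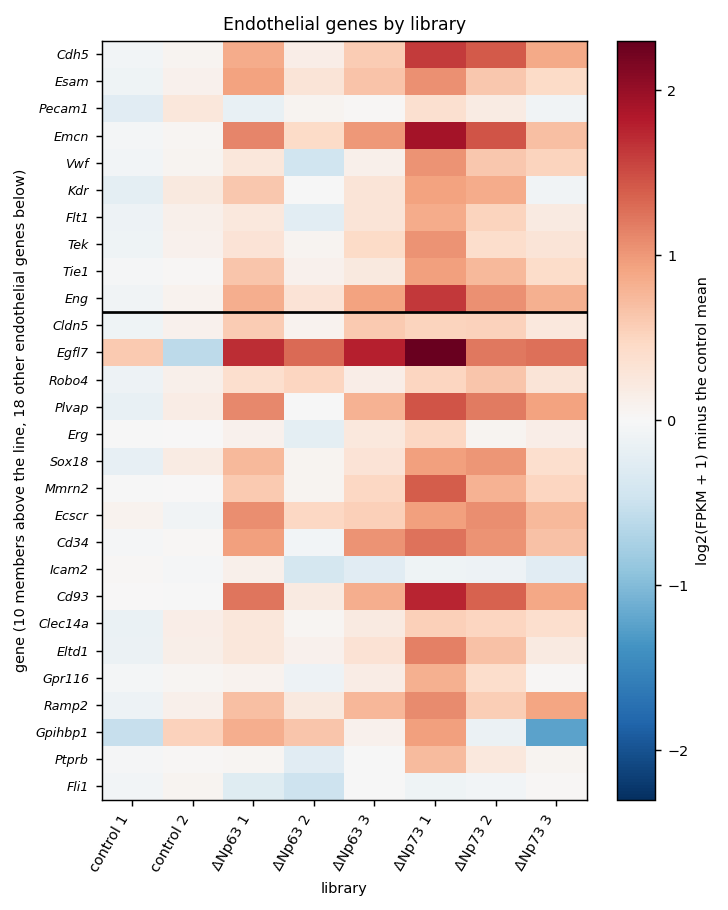
Colour shows log2(FPKM + 1) of each gene minus its mean in the controls, for the 10 endothelial genes and the other endothelial genes tested (rows) in the 8 libraries (columns). ΔNp73 replicate 1 is the highest column for all 10 genes, and ΔNp63 replicate 2 is the lowest of its group for 9 of them.

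Set against Cdh5 in the same library, the genes kept different proportions. FPKM is per length, so these ratios compare transcript levels, here of the leading entries. Pecam1, Eng and Emcn had 2 entries, so their ratios leave out part of the gene and would be higher with entries summed. For Pecam1 the division between entries also differed in control replicate 2. Tie1 held the steadiest ratio, from 0.214 to 0.294 over the 8 libraries. Emcn averaged 0.838, 1.11 and 0.908 of Cdh5 in the control, ΔNp63-labelled and ΔNp73-labelled groups, and Eng 1.04, 1.197 and 0.949. Pecam1 was 4.97, 3.23 and 1.94 times Cdh5 on average, with extremes of 5.65 and 1.78. Esam averaged 0.639, 0.732 and 0.429, and Vwf 0.372, 0.223 and 0.281. The ratios were described with no test.

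**Figure D4:**
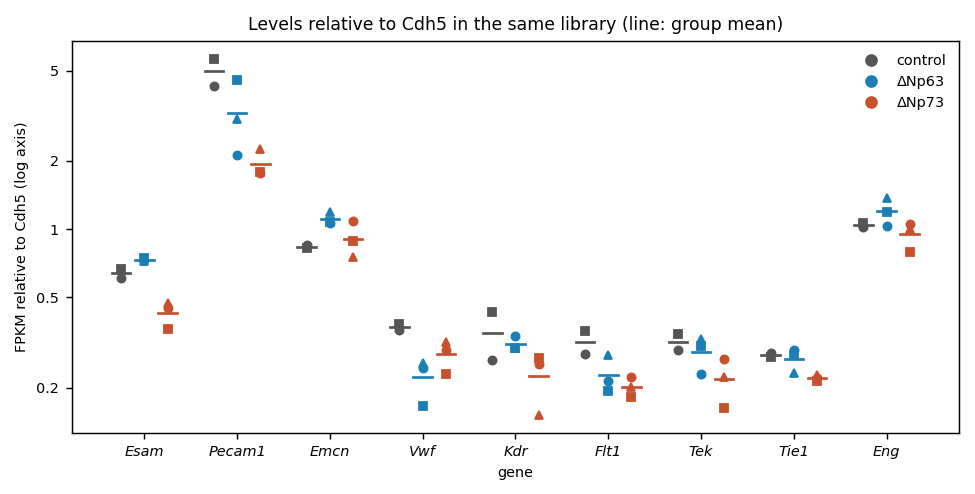
FPKM of the other 9 genes, by leading entries, divided by FPKM of Cdh5 in the same library (log axis), 1 point per library, coloured by group, with a line at each group mean. Tie1 stays between 0.214 and 0.294, whereas Pecam1 runs from 5.65 down to 1.78.

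A wider list of endothelial genes had 22 names, of which 19 were in the table and 18 passed the filter of 1 FPKM in at least 2 libraries. For ΔNp63 15 of the 18 were above 0 (47.7% of all genes), with a median log2 difference of 0.38. For ΔNp73 15 of 18 were (43.3% of all genes), with a median of 0.58. None passed in limma with all 8 libraries, but an unadjusted p under 0.05 was reached upward by 3 and 11 (5.96% and 11.4% of all genes). Groups lay wholly above the controls for 6 and 14 (12.6% and 27.7% of all genes). Cd93, a receptor of the endothelial surface, measured 2.52 and 2.44 FPKM in the controls, 7.14, 3.00 and 5.21 in the ΔNp63-labelled and 10.7, 7.91 and 5.46 in the ΔNp73-labelled libraries (log2 difference for ΔNp73 1.33, adjusted p = 0.110). Ecscr, which modulates endothelial migration, had log2 differences of 0.70 (adjusted p = 0.281) and 0.92 (adjusted p = 0.1001). Egfl7, a protein secreted by endothelial cells, had 1.60 (SE 0.44, adjusted p = 0.248) for ΔNp63, but its FPKM were divided among 4 entries, and their sum was 3.30 and 3.70 FPKM in the controls, 7.22, 11.4 and 6.98 in the ΔNp63-labelled and 10.4, 9.32 and 5.40 in the ΔNp73-labelled libraries. On that sum its log2 difference for ΔNp63 was 1.06 (adjusted p = 0.243). Without ΔNp73 replicate 1, 0 of the list passed, the ΔNp73 median was 0.45, and 6 in place of 11 were higher at an unadjusted p below 0.05, a share to be read against 8.13% of all genes. Without ΔNp63 replicate 2, 7 of the list rose for ΔNp63 (11.7% of all genes) and 9 for ΔNp73 (16.8%). Cd93, Ecscr, Egfl7, Cd34, Plvap and Ramp2 were in both counts. Without both libraries, 8 of 17 rose for ΔNp63 (13.6% of all genes) and 7 of 17 for ΔNp73 (14.9%).

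Ligands and co-receptors of the same pathways were more mixed. Of 18 named, 16 were in the table and 14 were tested. Above 0 were 10 for ΔNp63 (median 0.17, 47.7% of all genes above 0) and 12 for ΔNp73 (median 0.43, 43.3%). With all libraries 0 passed, and 1 and 3 were higher at an unadjusted p under 0.05, against 5.96% and 11.4% of all genes. Acvrl1 (ALK1), the kinase that Eng serves, had log2 differences of 0.45 and 0.72 (adjusted p = 0.379 and 0.111 in limma). Figf (VEGF-D), a growth factor for lymphatic and blood vessels, measured 0.329 and 0.2003 FPKM in the controls, 1.89, 0.296 and 1.62 in the ΔNp63-labelled and 4.67, 2.07 and 2.47 in the ΔNp73-labelled libraries (ΔNp73 1.64, SE 0.40, adjusted p = 0.104). Angpt1, the activating ligand of Tek, went the other way in ΔNp63: 5.196 and 6.15 FPKM in the controls against 2.80, 0.313 and 4.17, a log2 difference of -1.17 (adjusted p = 0.405), and 7.02, 4.53 and 5.70 in the ΔNp73-labelled libraries. Without ΔNp63 replicate 2, the library at 0.313, the Angpt1 difference was -0.59 (adjusted p = 0.0950). In that setting 3 of 13 rose for ΔNp63 (11.7% of all genes). For ΔNp73 5 rose (16.8% of all genes) and 1 fell (16.1%). Acvrl1 and Figf rose in both groups (ΔNp73 adjusted p = 0.00343 and 0.00451), and Dll4, a Notch ligand of sprouting vessels, fell by 0.64 for ΔNp73 (adjusted p = 0.0150). Without ΔNp73 replicate 1, 0 of 13 passed, as against 0.00779% of all genes for ΔNp73. There 4 were higher for ΔNp73 at an unadjusted p below 0.05 (8.13% of all genes), and Figf stood at 1.37 (adjusted p = 0.283). With ΔNp63 replicate 2 left out as well, Figf passed at 1.37 (adjusted p = 0.00260).

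Adhesion and lymphatic genes showed further differences that did not pass with all libraries. Selp (P-selectin, of endothelial granules and platelets) read 1.02 and 0.977 FPKM in controls, against 7.30, 3.88 and 2.71 in the ΔNp73-labelled group (log2 difference 1.41, adjusted p = 0.122 in limma). Icam1, an adhesion molecule of inflamed vessels and white blood cells, had log2 differences of 0.49 and 1.008 (ΔNp73 adjusted p = 0.199). Pdpn (podoplanin), made by lymphatic endothelium and by stromal cells, read 5.98 and 5.74 FPKM in controls, against 42.8, 44.2 and 30.8 in the ΔNp73-labelled group (2.54, adjusted p = 0.0787). Lyve1, a hyaluronan receptor of lymphatic vessels and of some macrophages, lay the other way: 1.0006 and 2.14 FPKM in the controls, and no more than 0.609 in any deletion-labelled library. Glycam1, a ligand for L-selectin on lymph node venules, was at 120 FPKM in control replicate 2 and at 0.409 in control replicate 1. Without ΔNp63 replicate 2, Pdpn (adjusted p = 0.000657), Icam1 (0.00115) and Selp (0.0144) rose for ΔNp73, and Lyve1 fell by 0.95 (0.0183). For ΔNp63, Pdpn (1.68, adjusted p = 0.00245) and Icam1 (0.93, 0.00258) rose there too, and Lyve1 fell by 1.24 (0.0141). Selp did not pass for ΔNp63 (0.74, adjusted p = 0.161). Of all genes, 11.7% were called higher for ΔNp63 and 16.8% for ΔNp73, and 10.8% and 16.1% lower. Without ΔNp73 replicate 1 none of these 4 passed for ΔNp73, in a setting where 0.00779% of all genes did. The log2 differences were 2.47 for Pdpn, 0.96 for Icam1, 1.09 for Selp and -1.05 for Lyve1, with adjusted p from 0.260 to 0.424. With ΔNp63 replicate 2 left out as well, all 4 passed at these same differences. The adjusted p were then 0.00161 for Pdpn, 0.00257 for Icam1, 0.00713 for Selp and 0.0218 for Lyve1.

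Markers of other cells differed between the same groups, and their part in the endothelial results was not tested. All 15 macrophage markers were in the table; their sum was 444 to 503 FPKM in the controls, 497 to 1374 in the ΔNp63-labelled and 1249 to 1649 in the ΔNp73-labelled libraries, and all 15 log2 differences were above 0 in both comparisons with control (medians 1.09 and 1.72). The 11 fibroblast markers summed to 110 to 114, 114 to 266 and 307 to 390 FPKM, with medians of 0.54 and 1.27, and Col1a2, a chain of type I collagen, rose for ΔNp73 (2.18, SE 0.23, adjusted p = 0.0475 in limma). That call was lost without ΔNp73 replicate 1 (2.24, adjusted p = 0.223), where 0.00779% of all genes passed. It was made again with ΔNp63 replicate 2 left out as well (2.24, adjusted p = 0.00248). The 11 mural cell markers summed to 77.6 to 109, 59.3 to 115 and 130 to 246 FPKM (medians over the 9 tested 0.30 and 0.79), led by Pdgfrb, the PDGF receptor of pericytes, at 1.69 for ΔNp73 (adjusted p = 0.0982). Pdgfrb had 2 entries, and the leading one stood at 0.00836 FPKM in control replicate 2 while the other read 2.34; with the entries summed, the ΔNp73 log2 difference was 0.82 (adjusted p = 0.0767). Of 12 platelet and megakaryocyte markers only 4 were in the table, Pf4, Ppbp, Itgb3 and Clec1b, with sums of 10.3 to 13.8, 16.9 to 108 and 42.3 to 79.6 FPKM; Vwf, Pecam1, Esam and Selp are shared with these cells. The 14 thymocyte and T cell markers lay lower than in controls, at 4034 to 4605, 1639 to 3645 and 1895 to 3154 FPKM, with 14 of 14 log2 differences below 0 (medians -0.87 and -0.94). The 14 proliferation genes summed to 1151 to 1194, 334 to 1076 and 327 to 539 FPKM. Without ΔNp63 replicate 2, the 15 macrophage markers rose in both groups, and 6 and 10 of the 11 fibroblast markers rose for ΔNp63 and ΔNp73. Of all genes, 11.7% and 16.8% were called higher there. In the same comparisons 1 and 9 of the 14 thymocyte markers fell. All 14 proliferation genes fell in both groups in that setting, where 10.8% of all genes were lower for ΔNp63 and 16.1% for ΔNp73. Without ΔNp73 replicate 1, 0 genes of these 4 lists passed, as against 0.00779% of all genes for ΔNp73. At an unadjusted p below 0.05 for ΔNp73, 13 macrophage and 7 fibroblast markers were higher (8.13% of all genes). In the same way 3 thymocyte and 2 proliferation markers were lower. Of all 12836 genes, 1683 were at that cut in either direction, and 1044 of these were higher. Without both libraries that stood apart, 15 macrophage and 9 fibroblast markers rose for ΔNp73 (14.9% of all genes). There 9 thymocyte and 14 proliferation markers fell, among 1572 of 12689 genes. Set beside these, the endothelial medians of 0.31 and 0.70 lay below those of macrophages and fibroblasts, a gap that was not tested. They lay near the mural cell medians of 0.30 and 0.79. The log2(FPKM + 1) scale understates the change of low genes, so part of the gap may be one of scale. With a pseudocount of 0.1 the endothelial medians were 0.52 and 0.98, and the other lists were not summarised at that setting.

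**Figure D5:**
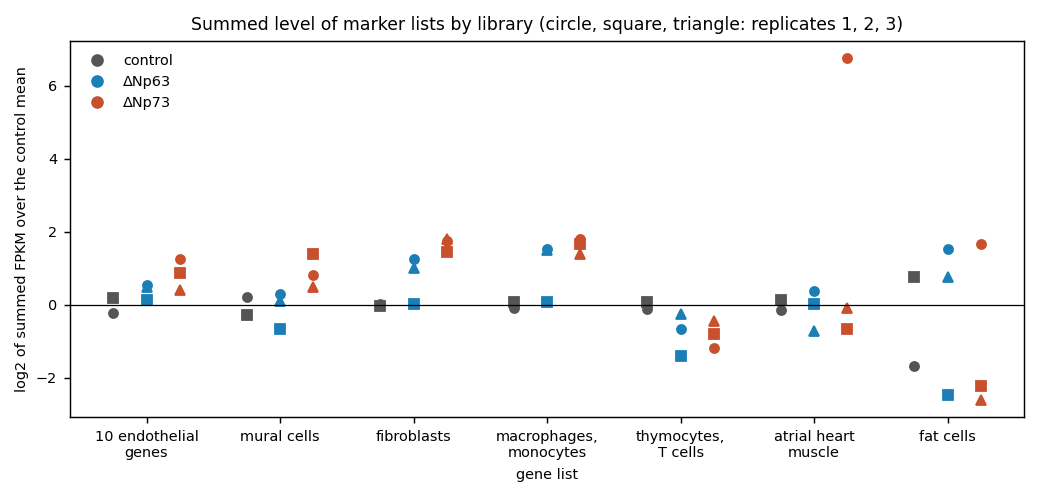
Summed FPKM of each marker list relative to the mean of the controls on a log2 axis, 1 point per library. In the ΔNp73-labelled libraries the macrophage, fibroblast and endothelial lists lie above the controls and the thymocyte list below, and the heart list stands out in ΔNp73 replicate 1 alone.

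The genes whose profile over the 8 libraries was most like the mean of the 10 were Cav1, Klrk1, Mmrn2, Pira2, Podxl, Csf1, Fam110c and Sowahc, with Pearson r on the log2 scale from 0.99 for Cav1 to 0.97 for Sowahc. Cav1 (caveolin-1, the coat protein of caveolae) had r = 0.99 and stayed at 0.98 without both libraries that stood apart. That is its leading entry; Cav1, Klrk1 and Csf1 had more than 1 entry, and with entries summed their r was 0.89, 0.93 and 0.88. Mmrn2, an endothelial matrix protein, is on the wider endothelial list, and Podxl codes for a sialomucin of the vessel surface. Klrk1 and Pira2 code for receptors of lymphoid and myeloid cells. The 8 were chosen for this likeness out of all genes tested, so it carries no test.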

How the data were processed

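Total RNA was extracted with TRIZOL LS and libraries were made with the TruSeq RNA kit, per the labels. One table of FPKM by RefSeq entry was deposited by the authors; its name marks the values as quantile-normalised, and sorted values of the 8 libraries match within 1% at all but 14.0% of ranks. TopHat2 2.0, Cufflinks 2.0 and build mm9 are named in the submitters' processing notes, without their roles. Quantile normalisation gives each library nearly the same set of values, so a shift shared by most genes cannot be seen. The depth is unknown. Of 35 symbols that had been turned into dates, names were restored by their accession. One entry per symbol was kept, values were taken as log2(FPKM + 1), and genes with at least 1 FPKM in at least 2 libraries were fitted with limma 3.58.1 (R 4.3.3, intensity trend, two-sided, 5 residual degrees of freedom), with Benjamini-Hochberg adjustment over 12921 genes and a threshold of 0.05. The script was tested on simulated data. All 10 members passed the filter. From the other lists, up to 3 genes past the threshold per comparison, or otherwise the 2 with the smallest p in each comparison with control, could be named, plus the 8 genes most like the members. Plvap, Cd34, Ramp2, Dll4, Trp63, Nppa, Ppbp and Itgb3 were named outside that rule after their values were seen. The members and lists were chosen with earlier results of these data known, and the heart and fat lists after their values were seen.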

Additional observations from a re-analysis of the deposited data

How the results depend on the processing

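Of 566 alternative values of the members, 494 kept their direction and their side of the threshold, 55 passed the threshold in the same direction, and 17 changed sign, of which none was past the threshold. Leaving out 1 library at a time moved Pecam1 between -0.28 and 0.23 for ΔNp63, between -0.10 and 0.42 for ΔNp73 and between -0.19 and 0.32 for both groups against control. It moved Flt1 between -0.025 and 0.27 and Vwf between -0.17 and 0.18 for ΔNp63, and Esam between -0.094 and 0.23 for ΔNp73 against ΔNp63. With entries summed, Pecam1 for ΔNp63 turned to 0.11. With array weights, Vwf for ΔNp63 turned to 0.19 and Esam for ΔNp73 against ΔNp63 to -0.18. Without ΔNp63 replicate 2 and ΔNp73 replicate 1 together, Vwf for ΔNp63 turned to 0.18, Pecam1 for both groups to -0.012, and, for ΔNp73 against ΔNp63, Esam to -0.26, Kdr to -0.072 and Tek to -0.027.

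The number of genes past the threshold in limma was 12 for ΔNp63, 7 for ΔNp73, 7 for ΔNp73 against ΔNp63 and 15 for both groups against control. With array weights it was 4480, 6569, 344 and 6296, and without both libraries that stood apart 3312, 3463, 22 and 4158. With only the groups compared it was 5 for ΔNp63 and 3890 for ΔNp73, and with a pseudocount of 0.1 it was 18 for ΔNp73. Leaving out 1 library gave 3 to 2882, 0 to 4212, 6 to 19 and 0 to 4194; each highest count was without ΔNp63 replicate 2. The counts of 0 came without control replicate 1 or 2, with 1066 and 1254 genes at an unadjusted p under 0.05 for ΔNp73 and 818 and 928 for both groups, and the lone control was assumed to vary like the other groups. The cause of these shifts was not tested. With a filter of 5 FPKM only 4 members were tested. No paired analysis was possible because the labels give no replicate numbers. The unknown depth limits the members near 1 FPKM most.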
